A study of Mus musculus with 7 samples.

Results

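The Serpina cluster of mouse chromosome 12 holds serine protease inhibitors (serpins) of clade A, which hepatocytes secrete into the blood in large amounts. The 10 genes described here were Serpina1a, Serpina1b, Serpina1c, Serpina1d and Serpina1e, Serpina3k, Serpina3m and Serpina3n, Serpina6, and Serpina10. Peaks were taken that overlapped the span of any of these genes in the mm9 assembly extended by 50 kb on each side. The extended spans merged into 2 blocks. The first, chr12:104804885-105247185 (442.3 kb), ran from Serpina10 to Serpina1e, and the second, chr12:105526696-105702539 (175.8 kb), held Serpina3k, Serpina3m and Serpina3n. Together they contained 30 of the 76683 CTCF peaks, 39 of the 67369 Rad21 peaks, and 18 of the 52436 sites that the authors sorted into 4 classes.

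The data came from livers of male CD-1 mice aged 8 weeks, with no treatment named in the labels. CTCF, the zinc finger protein that binds an oriented motif and marks the ends of chromatin loops, was assayed by chromatin immunoprecipitation and sequencing (ChIP-seq) in 4 libraries, and Rad21, a subunit of the cohesin ring that extrudes loops, in 3 libraries. The study asked which CTCF sites anchor topologically associating domains (TADs) and which anchor shorter loops inside them. Both peak lists pool their libraries, so no value below has an error between mice and no difference could be tested. Whole liver was used, so a weaker peak and a peak in fewer cells cannot be told apart, and the tissue could not be checked against marker genes from peak lists alone.

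Cohesin is thought to travel along chromatin until it meets CTCF bound with its motif facing the incoming complex, so 2 CTCF motifs that point towards each other are the usual ends of a loop. Among the genes enclosed here, the Serpina1 copies encode alpha-1 antitrypsin, the inhibitor of neutrophil elastase. Serpina6 encodes corticosteroid-binding globulin, a hormone carrier without protease-inhibiting activity, and Serpina10 encodes the protein Z-dependent inhibitor of coagulation factor X. Serpina3k, Serpina3m and Serpina3n are mouse relatives of the single human gene for alpha-1 antichymotrypsin, an acute phase protein.

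The class list named 10 anchors in the windows, of which 8 were anchors of loops predicted inside TADs (intra-TAD anchors) and 2 were TAD anchors. The remainder were 7 other sites with CTCF and cohesin (other CAC sites) and 1 CTCF site without cohesin (lone CTCF). The best match to the CTCF matrix under each anchor is given below as read from the mm9 genome, from 5′ to 3′ on the motif strand, because the strand of this match set the orientation of each site. Capitals mark the 19 bases scored, and lower case marks 15 bases of flank.
Intra-TAD anchor at chr12:104881732-104881780, minus strand: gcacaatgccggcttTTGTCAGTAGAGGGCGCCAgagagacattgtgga
Intra-TAD anchor at chr12:104948762-104948810, minus strand: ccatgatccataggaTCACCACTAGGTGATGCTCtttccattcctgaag
Intra-TAD anchor at chr12:104949912-104949960, plus strand: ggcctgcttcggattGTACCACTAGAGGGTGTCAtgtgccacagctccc
Intra-TAD anchor at chr12:105216205-105216253, plus strand: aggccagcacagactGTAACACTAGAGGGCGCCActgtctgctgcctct
Intra-TAD anchor at chr12:105223319-105223367, plus strand: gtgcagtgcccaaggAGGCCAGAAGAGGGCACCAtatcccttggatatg
Intra-TAD anchor at chr12:105233689-105233737, plus strand: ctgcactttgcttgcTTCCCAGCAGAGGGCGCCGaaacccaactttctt
Intra-TAD anchor at chr12:105656873-105656921, minus strand: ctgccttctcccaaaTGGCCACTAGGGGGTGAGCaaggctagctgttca
Intra-TAD anchor at chr12:105657533-105657581, minus strand: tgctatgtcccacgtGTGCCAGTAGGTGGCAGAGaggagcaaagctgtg
TAD anchor at chr12:105665373-105665421, minus strand: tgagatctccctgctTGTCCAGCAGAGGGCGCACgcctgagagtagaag
TAD anchor at chr12:105678434-105678482, plus strand: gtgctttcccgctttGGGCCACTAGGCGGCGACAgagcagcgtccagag

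All 17 class-list sites that carry a motif gave the deposited strand when rescored, with scores within 0.028 of the deposited ones. The deposited motif score (log-odds, in bits) ran from 13.3 to 21.1 over the 10 anchors. Its highest value in the windows, 24.2, belonged to an other CAC site. The lowest, 8.43, belonged to the lone CTCF site, and the only CAC site close to it, with 8.62, was a strong peak downstream of Serpina3k. Those outlying sites read as follows.
Other CAC at chr12:105686548-105686596, minus strand: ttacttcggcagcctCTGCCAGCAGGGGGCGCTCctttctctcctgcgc
Other CAC at chr12:105590195-105590243, plus strand: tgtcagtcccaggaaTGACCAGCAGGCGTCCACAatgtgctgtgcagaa
Lone CTCF at chr12:104923020-104923068, minus strand: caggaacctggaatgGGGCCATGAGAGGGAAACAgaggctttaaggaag
CTCF summits lay close to these matches. The offset from the motif centre, counted as positive towards the 3′ end of the motif, had a median of -9 bp, and 13 of 17 summits lay within 25 bp. The 4 exceptions included the lone CTCF site (-102 bp) and both other CAC sites beside Serpina3k and Serpina3m (65 and -81 bp).

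The peaks were spread unevenly over the genes. Serpina10 had 10 CTCF and 14 Rad21 peaks within 50 kb of its span, and Serpina6 had 11 and 15. Serpina1b had 4 of each, and Serpina1e had 7 CTCF and 10 Rad21 peaks. Serpina1d had 0 of either kind. Serpina1a and Serpina1c each had 0 CTCF peaks and shared 1 Rad21 peak. In the second block, Serpina3k had 2 CTCF and 3 Rad21 peaks, Serpina3m had 7 of each, and Serpina3n had 8 of each. Over all 22380 protein-coding genes of the annotation the median was 8 CTCF peaks (quartiles 3 and 12) and 6 Rad21 peaks (quartiles 2 and 10). The windows of neighbouring genes overlap, so peaks are counted once for each gene they lie near.

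**Figure D1:**
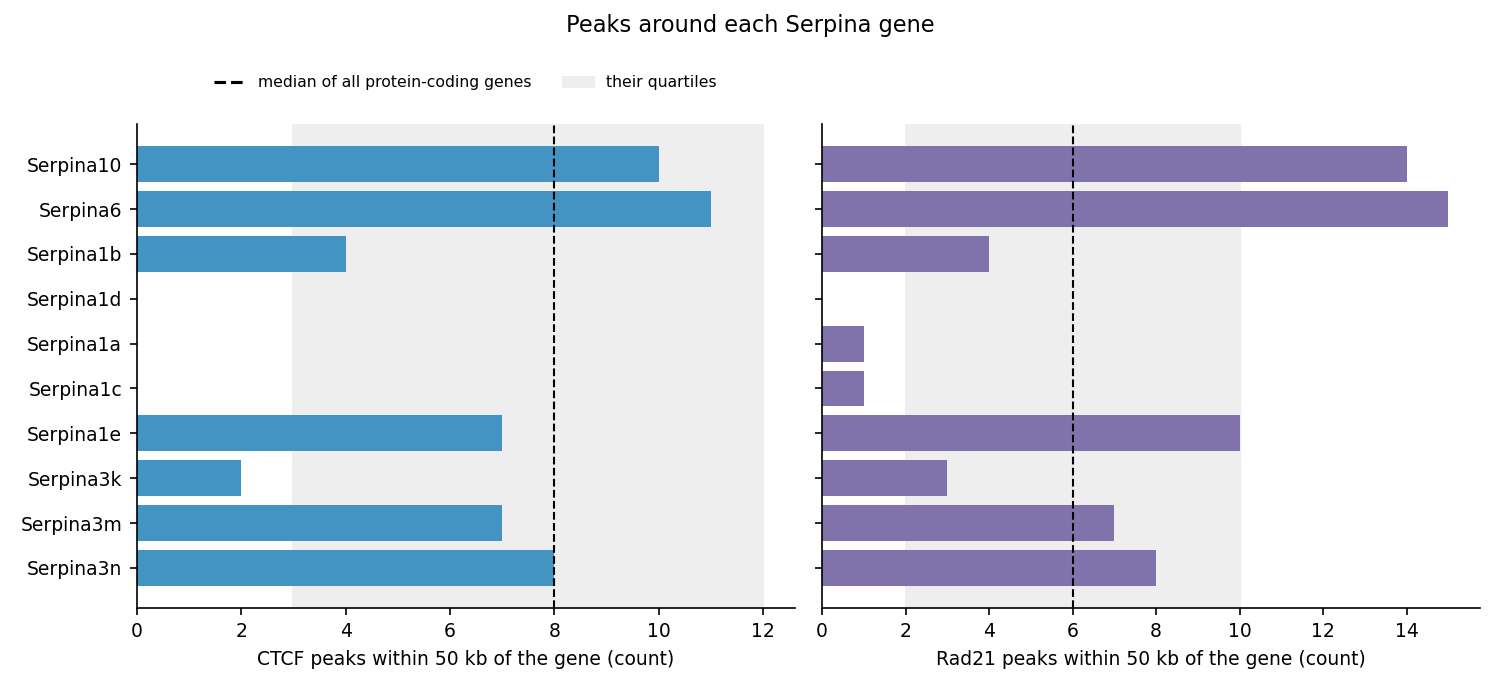
Number of CTCF peaks (left) and Rad21 peaks (right) within 50 kb of each Serpina gene, in chromosomal order. Bars are counts from the pooled lists, the dashed line is the median of all protein-coding genes (8 and 6) and grey marks their quartiles. Serpina1d, Serpina1a and Serpina1c sit at 0 for CTCF and at 0 or 1 for Rad21.

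A CTCF peak lay within the span of 2 of the 10 members, against 66.0% of protein-coding genes. These were Serpina10, with 3 CTCF peaks, and Serpina3n, with 1, and all 4 were weak (scores from 45 to 92). A Rad21 peak lay within the span of 3 members, against 62.1% of genes. Serpina10 held 4 Rad21 peaks, Serpina6 held 2 and Serpina3n held 1. Member genes are short, from 7094 to 14770 bp, whereas the median protein-coding gene spanned 15421 bp. The part of gene length in these counts was not tested.

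At transcription starts Rad21 was found at more members than CTCF. A Rad21 peak lay within 1 kb of an annotated start for 4 members, Serpina10, Serpina6, Serpina3m and Serpina3n, against 53.4% of protein-coding genes. A CTCF peak did so only for Serpina3m, against 56.3% of genes. For Serpina10, Serpina6 and Serpina3n the Rad21 peak overlapped no CTCF peak, and is then called a cohesin-non-CTCF (CNC) peak. A CNC peak within 1 kb of a start was found for 9.86% of protein-coding genes.

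At Serpina10 the CNC peak covered chr12:104869157-104869669 and its summit lay 158 bp downstream of the nearest start, in an intron. It had a score of 175, where the score is 10 times the −log10 of the q-value, and 63 Rad21 fragments at the summit over a local background of 15.1. This was the strongest CNC peak of the windows and exceeded 93.8% of all CNC peaks. At Serpina6 the peak chr12:104895117-104895515 had its summit 95 bp downstream of the start, with a score of 99 and 50 fragments over a background of 15.3. At Serpina3n the peak chr12:105644938-105645589 began at the start and had its summit 531 bp downstream, with a score of 71 and 34 fragments over a background of 9.9. The median local background over all Rad21 peaks was 8.1, so the peaks at Serpina10 and Serpina6 stood on a raised local background. Serpina3k had a CNC peak somewhat farther away, at chr12:105575017-105575302, with a summit 1586 bp upstream of its start, a score of 153 and 44 fragments. The bases around the 3 summits nearest to a start are printed because they hold cohesin without a strong CTCF match. Within these peaks the best match to the CTCF matrix scored 5.86 at Serpina10, 6.91 at Serpina6 and 4.72 at Serpina3n, all below the 13.3 of the weakest anchor.
Serpina10 at chr12:104869413-104869533, minus strand: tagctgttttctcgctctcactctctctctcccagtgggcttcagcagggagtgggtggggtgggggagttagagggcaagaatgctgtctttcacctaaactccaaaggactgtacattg
Serpina6 at chr12:104895157-104895277, minus strand: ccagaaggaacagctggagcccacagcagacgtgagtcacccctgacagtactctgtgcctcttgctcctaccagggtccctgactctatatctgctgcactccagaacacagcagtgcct
Serpina3n at chr12:105645410-105645530, plus strand: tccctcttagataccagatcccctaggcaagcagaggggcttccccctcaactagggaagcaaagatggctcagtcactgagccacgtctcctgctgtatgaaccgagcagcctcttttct

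Serpina10 and Serpina6 were also the genes with most CNC peaks nearby, with 8 and 10 within 50 kb, whereas the median gene had 1. The remaining CNC peaks within member spans were weak. Serpina10 held 2 of them at its 3′ end, chr12:104854738-104855091 (score 57) and chr12:104855163-104855566 (score 70). Serpina6 held a second in an intron, chr12:104893735-104894231 (score 67). At Serpina3m the peak near the start was of the other kind. The CTCF peak chr12:105623997-105624454 and its Rad21 partner ended 920 and 974 bp upstream of the start, with scores of 1027 and 593.

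The 5 Serpina1 genes lay together in a stretch without any CTCF peak, chr12:104950123-105201831, 251.7 kb long. The median distance between neighbouring CTCF peaks over all chromosomes was 10.6 kb, and 1428 of 76654 such gaps (1.86%) were at least this long. That is a share of gaps and not of sequence, and long gaps cover more of the genome than short ones. It is therefore not the chance that a given locus lies in such a gap. The stretch was also the longest gap between CTCF peaks in the windows. The stretch held 13 annotated genes, of which the 5 Serpina1 genes were the only ones that code for protein and 7 were pseudogenes. Wholly inside it lay 3 Rad21 peaks, all of them CNC and weak, namely chr12:105132109-105132357 (score 53), chr12:105199989-105200186 (score 57) and chr12:105200518-105200749 (score 56). The last pair lay 2.8 to 3.5 kb upstream of Serpina1e. A Rad21 peak that overlaps the CTCF peak at each end also reached into the stretch, chr12:104949710-104950128 (score 2391) on the left and chr12:105201573-105202029 (score 163) on the right. No peak of either kind lay within 1 kb of a start of a Serpina1 gene. Seen from the 5′ end of each gene, the nearest CTCF peak was 4.6 kb away for Serpina1e, 26.2 kb for Serpina1b, 58.7 kb for Serpina1c, 61.7 kb for Serpina1d and 97.7 kb for Serpina1a.

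**Figure D2:**
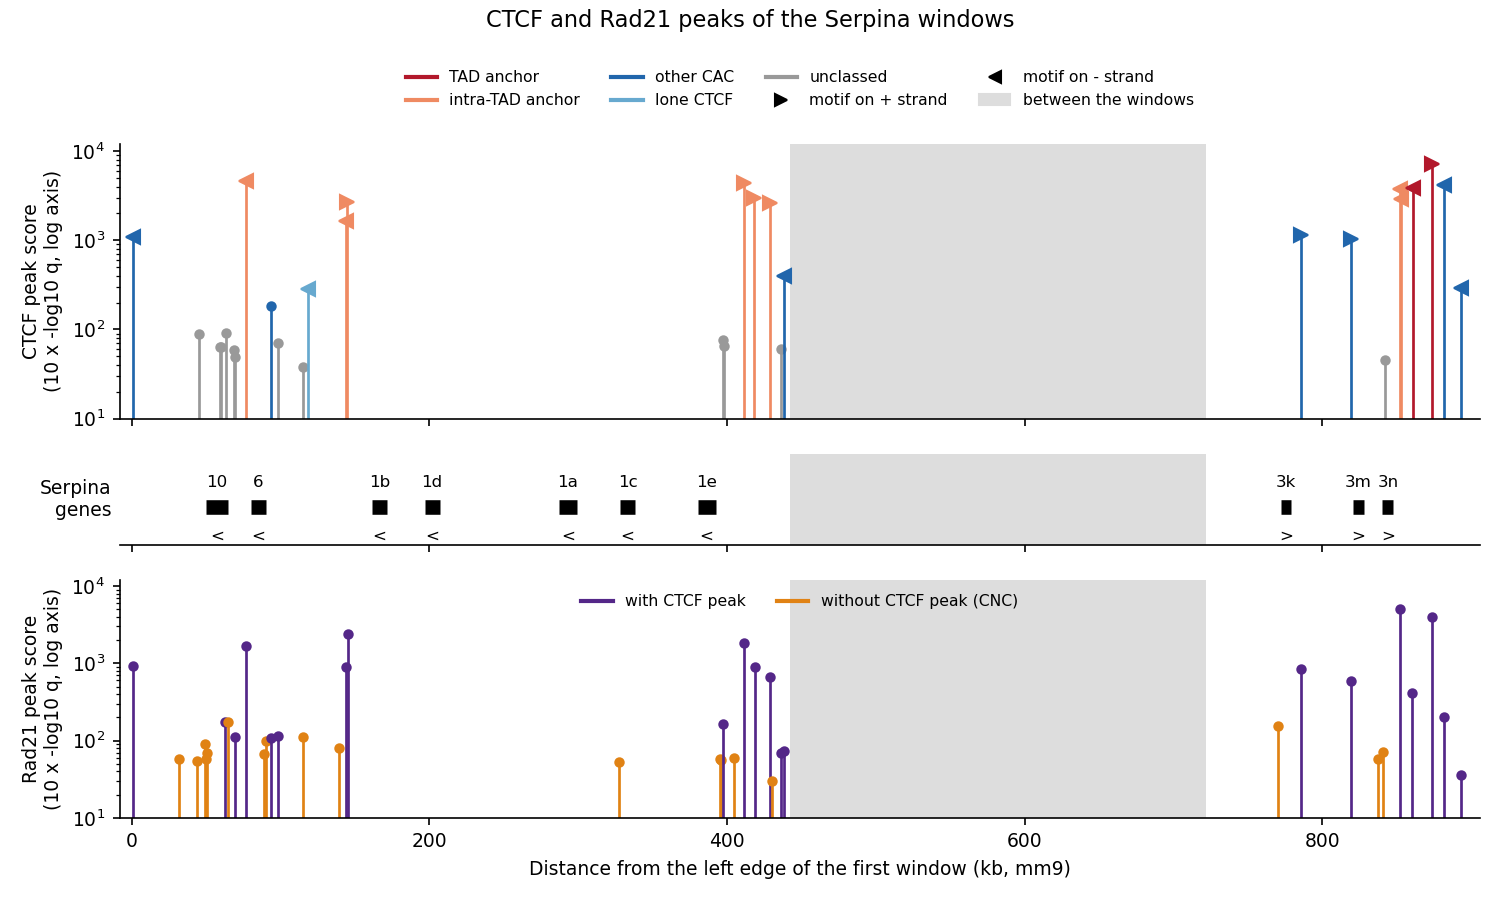
CTCF peaks (top), Serpina genes (middle, with arrowheads for the direction of transcription) and Rad21 peaks (bottom) by distance in kb from the left edge of the first window. Stick height is the peak score on a log axis, colours give the authors' class or, for Rad21, overlap with CTCF, and triangles point along the motif strand. Strong CTCF peaks flank Serpina1b to Serpina1e on both sides, 265.9 kb apart. The stretch of 251.7 kb without any CTCF peak ends on the right at a weak peak (score 77).

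The 5 genes are near copies of each other, and the authors kept only reads with a unique position. Words of 50 bases, the read length of the study, were counted over the whole assembly. In the stretch 52.8% of words occurred once, which left 133.0 kb of unique starts. The share was 94.1% in the first block to the left of the stretch, 96.9% to its right, 92.0% in the second block, and 89.0% over 5300 tiles of 1 kb taken every 500 kb along the genome. Of the repeated words in the stretch, 66.5% had all of their copies within this part of chromosome 12. By gene the share was 44.7% in Serpina1c, 49.9% in Serpina1a, 57.3% in Serpina1d, 60.5% in Serpina1e and 60.9% in Serpina1b. It was 61.0% in Serpina10, but 100.0% within 1 kb of that gene's 5′ end. In Serpina6 it was 100.0%, and in Serpina3k, Serpina3m and Serpina3n it ran from 91.1% to 95.5%. All 30 CTCF peaks and all 39 Rad21 peaks of the windows lay where at least 84.1% of words were unique. The part of read mapping in the absence of peaks was not tested.

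**Figure D3:**
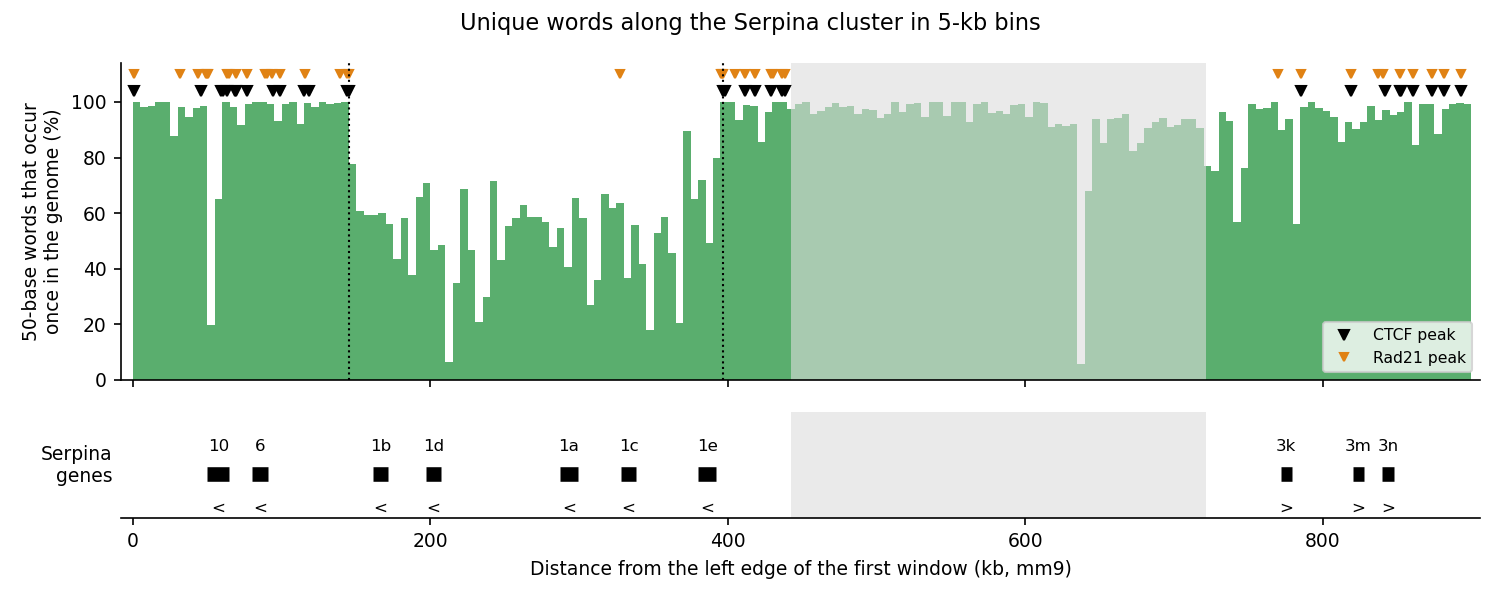
Share of 50-base words that occur once in the genome, in bins of 5 kb (bars), with the summits of CTCF peaks (black) and Rad21 peaks (orange) above and the Serpina genes below. The x axis is the distance in kb from the left edge of the first window, dotted lines bound the stretch without CTCF, and grey marks sequence outside the windows. The share drops between the dotted lines (52.8% over the stretch) and recovers on both sides.

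How alike the copies are can be read from their promoters. The 100 bases below lie 11 to 44 bp upstream of an annotated start of each gene. Capitals mark bases that differ from Serpina1b.
Serpina1a at chr12:105101804-105101903, minus strand: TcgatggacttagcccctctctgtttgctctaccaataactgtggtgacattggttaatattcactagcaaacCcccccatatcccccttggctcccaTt
Serpina1b at chr12:104976379-104976478, minus strand: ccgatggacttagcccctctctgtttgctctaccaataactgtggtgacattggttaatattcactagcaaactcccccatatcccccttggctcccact
Serpina1c at chr12:105143141-105143240, minus strand: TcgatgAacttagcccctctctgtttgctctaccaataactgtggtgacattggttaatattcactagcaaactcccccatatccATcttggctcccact
Serpina1d at chr12:105011813-105011912, minus strand: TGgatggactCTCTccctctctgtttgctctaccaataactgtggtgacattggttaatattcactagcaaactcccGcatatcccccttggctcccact
Serpina1e at chr12:105195139-105195238, minus strand: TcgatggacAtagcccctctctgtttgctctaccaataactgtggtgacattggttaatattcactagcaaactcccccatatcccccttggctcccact
Relative to Serpina1b, Serpina1e differed at 2 of the 100 bases, Serpina1a at 3, Serpina1c at 4 and Serpina1d at 7. A further copy with 2 differences lay between genes at chr12:105066253-105066352. Of the 51 words of 50 bases in each promoter, 1 was unique in Serpina1b, 10 in Serpina1e, 22 in Serpina1c, 27 in Serpina1a and 37 in Serpina1d, and the most repeated word occurred 6 times in the genome.

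The promoters hold letters known from liver transcription factors. Windows from 250 bases before to 50 bases after every annotated start were searched on both strands. GTTAAT, the half-site of HNF1, was found at 7 of 10 members (Serpina10, Serpina6 and the 5 Serpina1 genes) and at 13.2% of protein-coding genes. TTNNGCAA, written for C/EBP, was found at 5 of 10 members (Serpina6, Serpina1a, Serpina1b, Serpina1d and Serpina1e) and at 19.6% of genes. CAAAGTNCA, written for HNF4, was found at 0 of 10 members and 2.81% of genes. The 5 Serpina1 promoters are copies of each other and do not count as separate cases. None of the letters searched occurred at Serpina3k, Serpina3m or Serpina3n.

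The CTCF matrix also matched within the stretch. At a score of 15 or more there were 8 matches in the stretch (3.18 per 100 kb) and 16 in the rest of the windows (4.37 per 100 kb). Of the 16, 11 lay under a CTCF peak. None of the 8 could, since the stretch was bounded as the sequence between neighbouring CTCF peaks. On the whole of chromosome 12, 1118 of 2810 such matches (39.8%) lay under a CTCF peak. Which part was richer in matches depended on the threshold. At a score of 13 or more the stretch held 23 matches (9.14 per 100 kb) and the rest of the windows held 26 (7.10 per 100 kb), of which 14 were under a peak. At 17 or more the stretch held 0 and the rest of the windows held 11, of which 9 were under a peak. All 16 matches outside with a score of 15 or more had at least 80% unique words from 100 bases before to 50 bases after them, whereas 1 of the 8 in the stretch did. From a score of 13 these were 24 of 26 and 5 of 23. The single match of the 8 lay in the pseudogene Gm8893 and had 87.0% unique words. It is a copy of a match in an intron of Serpina1b. The same 49 bases, without a difference, occurred in introns of Serpina1a, Serpina1c and Serpina1e, and Serpina1d differed at 2 of them. Both forms are shown, with the scored bases in capitals.
Serpina1b at chr12:104967102-104967150, minus strand: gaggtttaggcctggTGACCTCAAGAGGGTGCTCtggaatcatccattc
Serpina1d at chr12:105002539-105002587, minus strand: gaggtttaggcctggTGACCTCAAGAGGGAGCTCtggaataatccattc
The first form scored 15.6 and the second 16.2, above the scores of 2 of the 10 bound anchors.

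Strong CTCF sites framed the genes. To the left of the Serpina1 genes, 2 intra-TAD anchors lay 710 bp apart with opposite motifs. The first, chr12:104948619-104948982, had its motif on the minus strand, a score of 1637 and 232 fragments at the summit, and the second, chr12:104949693-104950122, had its motif on the plus strand, a score of 2668 and 316 fragments. To the right lay 3 plus-strand intra-TAD anchors, chr12:105215986-105216441 (score 4375), chr12:105223077-105223678 in an intron of Serpina11 (score 2977) and chr12:105233445-105234212 in an annotated UTR of Serpina9 (score 2593). An other CAC site on the minus strand, chr12:105242956-105243275 (score 401), ended the block. The nearest anchors of all 5 Serpina1 genes were thus the plus-strand site at the left and the first plus-strand site at the right, 265.9 kb apart and pointing the same way.

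The other members had different frames. Serpina10 lay between a plus-strand intra-TAD anchor outside the window, chr12:104782300-104782779, and the minus-strand intra-TAD anchor chr12:104881566-104881976, which point towards each other over 98.8 kb. The latter was the strongest CTCF peak of the first block, with a score of 4686 and 465 fragments. Serpina6 lay between this same anchor and the minus-strand anchor that begins at 104948619, 66.6 kb apart and pointing the same way. Serpina3k, Serpina3m and Serpina3n all lay between the plus-strand intra-TAD anchor chr12:105447375-105447795 outside the window and the minus-strand intra-TAD anchor chr12:105656668-105657149, which point towards each other over 208.9 kb. Serpina3n was 4.1 kb from the latter. Nearest anchors need not be those that the authors paired into loops. An anchor lay within 50 kb of 6 of the 10 members, against 65.0% of protein-coding genes, and Serpina1a, Serpina1c, Serpina1d and Serpina3k had none.

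The 2 TAD anchors lay beyond Serpina3n and pointed away from each other. The first, chr12:105665145-105665641 on the minus strand, had a score of 3826 and 382 fragments. The second, chr12:105678234-105678701 on the plus strand, had a score of 7243 and 656 fragments, more than 98.2% of all CTCF peaks and the strongest in the windows. With the intra-TAD anchors at 105656668 and 105657329 (score 2911) on one side and an other CAC site, chr12:105686332-105686871 (score 4154), on the other, 5 CTCF peaks with scores from 2911 to 7243 stood in a row. TAD anchors were selected by the authors for presence in all 4 CTCF replicates, a motif, its orientation and the distance to a TAD boundary. Intra-TAD anchors were selected for motif strand and score and for the strength of CTCF and Rad21 peaks in 4 pairs of datasets. The liver without a Rad21 library of its own was paired with the merge of the 3 Rad21 libraries. Loops of intra-TAD anchors also had to contain a transcription start. These properties describe the anchors and are no result about them.

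Anchors made up 10 of the 18 class-list sites (55.6%, exact Clopper-Pearson 95% interval 30.8 to 78.5), against 28.4% of the whole list. The windows were drawn around genes and the authors kept only loops that contain a start, and the part of that in the share was not tested. Intervals here cover counting error only. Of the 18, 15 carried the authors' flag for the cohesin subunit Stag1 (70.6% of the list), 16 that for Stag2 (88.1%) and 11 that for topoisomerase Top2b (54.8%). All 10 anchors had both Stag flags, but the shares in brackets are of sites of all classes and not of anchors alone. The intra-TAD anchors at 105223077 and 105657329 lacked the Top2b flag. The lone CTCF site, chr12:104922966-104923294 between Serpina6 and Serpina1b (score 281), carried no flag, nor did the other CAC site at 105242956. The other CAC site at the right end, chr12:105697634-105698025 (CTCF score 295, Rad21 score 36), had Stag2 alone. Of the CAC sites not yet named, both carried all of the flags. They lay in an intron of Ppp4r4 at the left end, chr12:104805312-104805807 (CTCF score 1087, Rad21 score 915), and 3.2 kb upstream of Serpina6, chr12:104898441-104898798 (CTCF score 183, Rad21 score 108), the latter being the only class-list site without a deposited motif.

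The 12 CTCF peaks outside the class list were weak, with scores from 38 to 92, whereas the 18 on it ran from 183 to 7243. All but 1 of the 12 lay in the first block, where 8 lay around Serpina10 and Serpina6, 2 lay upstream of Serpina1e and 1 lay in Serpina9. The median CTCF score was 92 in the first block and 2911 in the second, with 321 over all CTCF peaks. A Rad21 peak overlapped 5 of the 12, against 36.4% of all CTCF peaks outside the class list. On the class list, overlap with cohesin is part of the class itself.

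In all, 22 of 30 CTCF peaks overlapped a Rad21 peak (73.3%, interval 54.1 to 87.7), against 67.3% of all CTCF peaks. CNC peaks numbered 18 of 39 Rad21 peaks (46.2%, interval 30.1 to 62.8), against 22.7% of all Rad21 peaks. The share was 51.7% (15 of 29) in the first block and 30.0% (3 of 10) in the second. CNC peaks were weak here as elsewhere, with scores from 30 to 175 and a median of 63, where all CNC peaks had a median of 65. When both lists were held to a score of at least 100, 7 of 21 Rad21 peaks in the windows were without CTCF (33.3%), against 15.5% of all. At that score 15 of 18 CTCF peaks in the windows had Rad21 (83.3%), against 64.4% of all. Here a peak loses its partner when the partner scores below 100. With partners of any score, 3 of the 21 Rad21 peaks were without CTCF (14.3%), against 8.14% of all, and 17 of the 18 CTCF peaks had Rad21 (94.4%), against 76.8%. Peaks of 1 locus are not replicates, and no test was made.

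The amount of Rad21 relative to CTCF varied widely from site to site. Each Rad21 peak was counted once, at the CTCF site with the nearest summit. At the 16 co-bound class-list sites that remained, the number of Rad21 fragments at the summit over that of CTCF fragments had a median of 0.56 (range 0.10 to 1.22), and over all 42464 such sites a median of 0.48. The 2 lists were not scaled to a common depth here, so the ratio has meaning only between sites. The highest Rad21 peak of the windows, chr12:105656597-105657738, had a score of 4984 and 582 fragments, more than 99.5% of all Rad21 peaks. It spanned both neighbouring intra-TAD anchors downstream of Serpina3n, but its summit lay 23 bp from that of the anchor at 105656668 and 686 bp from that of the anchor at 105657329. The first anchor had 477 CTCF fragments, a ratio of 1.22, and 99.2% of co-bound sites with a CTCF count within 1.25-fold of its own had a lower one. The second had 400 CTCF fragments and no Rad21 summit of its own, so no ratio is given. The plus-strand anchor at 104949693, beside the stretch without CTCF, had 297 Rad21 over 316 CTCF fragments, a ratio of 0.94 above 96.0% of similar sites.

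The other intra-TAD anchors of the first block lay closer to the median of sites with similar CTCF counts, which was 0.37 to 0.38, and all 5 lay above it. Intra-TAD anchors were selected in part on Rad21 strength, whereas the similar sites were of any class. The part of that selection in these ranks, and in those of the intra-TAD anchors above, was not tested. The anchor at 104881566, between Serpina10 and Serpina6, had 219 Rad21 over 465 CTCF fragments (ratio 0.47, above 62.5% of similar sites), and that at 104948619 had 166 over 232 (0.72, above 87.4%). The 3 plus-strand anchors to the right of Serpina1e had 225 over 450 (0.50), 160 over 354 (0.45) and 133 over 308 (0.43), so both counts were lower at each anchor farther from Serpina1e. These ratios were above 65.8%, 61.2% and 59.1% of similar sites. At the left end of the block, the other CAC site at 104805312 had 144 over 164, a ratio of 0.88 above 94.4% of similar sites. Near the Serpina3 genes, the other CAC sites at 105589962 and 105623997 had 102 over 127 (0.80, above 88.3%) and 83 over 118 (0.70, above 79.6%). Their motif scores of 8.62 and 12.02 were lower than those of the anchors.

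Some sites had low ratios. To the right of the shared Rad21 peak, the TAD anchor at 105665145 had 382 CTCF but 63 Rad21 fragments (Rad21 score 408), a ratio of 0.16 with 11.2% of similar sites below it. The other CAC site at 105686332, which holds the best motif of the windows, had 403 CTCF but 42 Rad21 fragments (Rad21 score 200), and its ratio of 0.10 exceeded only 3.01% of similar sites. Between them, the TAD anchor at 105678234 had 402 Rad21 over 656 CTCF fragments, a ratio of 0.61 above 78.7% of similar sites. The weak other CAC site at 105697634 had 53 CTCF and 18 Rad21 fragments. Its ratio of 0.34 was higher than that at 105686332. Co-bound sites with similarly weak CTCF had a median of 0.71, against 0.37 for sites similar to that at 105686332. The ratio of 0.34 exceeded only 1.62% of the former. Only sites with a called Rad21 peak enter, and no Rad21 peak of the whole list had fewer than 15 fragments. Very low ratios at weak CTCF sites are thus left out, and the part of this in the median and rank was not tested. In the first block, the other CAC site at 105242956 had 29 Rad21 over 73 CTCF fragments, and its ratio of 0.40 exceeded 18.2% of similar sites, whose median was 0.60. That rank and median are subject to the same limit on called Rad21 peaks.

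**Figure D4:**
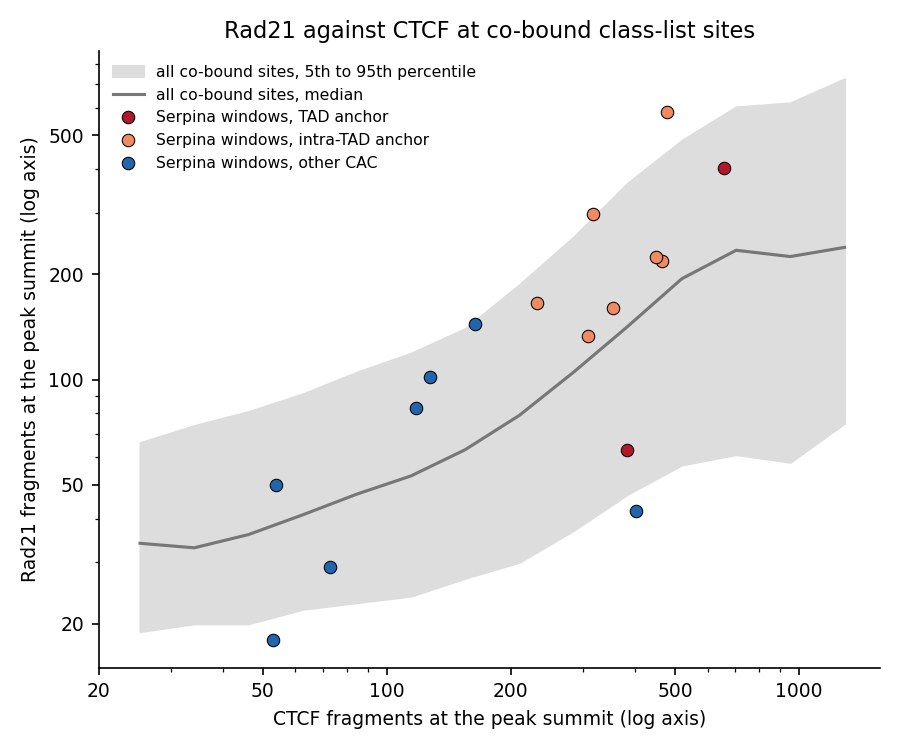
Rad21 against CTCF fragments at the summit, both on log axes, for the 16 co-bound class-list sites of the Serpina windows (points, coloured by class), with each Rad21 peak counted once. The line is the median of all co-bound sites in bins of CTCF fragments, and the band runs from their 5th to their 95th percentile. Co-bound sites need a called Rad21 peak, and no Rad21 peak of the whole list had fewer than 15 fragments. The intra-TAD anchor with 582 Rad21 fragments lies above the band, and the other CAC sites with 42 and 18 Rad21 fragments lie below it.

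Rad21 summits were displaced along the motif. Counted as positive towards the 3′ end of the motif, the shift from the CTCF to the Rad21 summit had a median of 20 bp over 15 sites (range -14 to 55), after the second CTCF peak of the shared Rad21 peak was left out, and was positive at 12 of them. Over all 35443 sites with a motif and both proteins, where no site was left out, the median was 17 bp, and 24201 shifts were positive and 10870 negative.

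A CTCF site of the Serpina3 array had copies of its own. The peak chr12:105589962-105590433, 13.6 kb downstream of the Serpina3k start (score 1158, 127 fragments), aligned with the CTCF peak that begins at 105483354 at 332 of 381 positions (87.1%). It aligned with the peak that begins at 105422455, in the opposite orientation, at 304 of 334 positions (91.0%). Both of these lie between the 2 blocks, outside the windows, and had scores of 500 and 195. Peaks that align over most of their summit region thus differed in score from 195 to 1158. The peak beside Serpina3k had 84.1% unique words, the lowest of the CTCF peaks.

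Of 16 further clade A serpins from a fixed list, 14 were found in the annotation, all in this part of the chromosome. Of these, 12 were annotated as protein-coding. Among the 12, a CTCF peak lay within the span of 3 (Serpina9, Serpina11 and Serpina12), against 66.0% of protein-coding genes, and a Rad21 peak within that of 4 (the same genes and Serpina5), against 62.1%. Within 1 kb of a start, CTCF was found at 1, Serpina12 (score 56), against 56.3%, and Rad21 at 0, against 53.4%. The 2 that do not code for protein had no peak in either place. The Serpina3 genes that lie between the blocks, from Serpina3a to Serpina3i, had no peak in their spans, and their shares of unique words ran from 84.0% (Serpina3g) to 99.9% (Serpina3a). Between the blocks, over 279.5 kb, there were 18 CTCF peaks, 15 Rad21 peaks and 4 intra-TAD anchors. Nearest outside the windows were CTCF peaks of score 1162 (3.9 kb to the left of the first block) and 354 (3.1 kb to the right of the second).

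The albumin family (Alb, Afp and Afm on chromosome 5) and the fibrinogen genes (Fga, Fgb and Fgg on chromosome 3), other clusters of genes for plasma proteins, were treated in the same way. The Serpina windows had 4.85 CTCF and 6.31 Rad21 peaks per 100 kb, and the whole genome had 2.89 and 2.54. The albumin windows had 8.82 and 14.5, and the fibrinogen windows 9.86 of each. The windows were drawn around genes and the whole genome was not, so the comparison with it is not like for like. Within 50 kb the median protein-coding gene had 8 CTCF peaks, exceeded only by Serpina10 and Serpina6. It had 6 Rad21 peaks, exceeded by Serpina10, Serpina6, Serpina1e, Serpina3m and Serpina3n. Anchors were 4 of 8 class-list sites at albumin and 5 of 9 at fibrinogen, beside the 10 of 18 at Serpina. Lone CTCF sites numbered 3 at albumin (37.5%), 3 at fibrinogen (33.3%) and 1 at Serpina (5.56%), against 20.1% of the whole class list. The interval of each locus held that share. CNC peaks were 53.6% of Rad21 peaks at albumin (interval 33.9 to 72.5) and 42.9% at fibrinogen (interval 17.7 to 71.1), and the interval of the Serpina windows overlapped both. Unique words made up 91.8% and 90.8% of these loci. None of these differences was tested.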

How the data were processed

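ChIP-seq was analysed from 3 deposited lists: CTCF peaks pooled from 4 livers, Rad21 peaks pooled from 3, and CTCF sites with classes. The authors mapped pooled reads to mm9 with Bowtie2, kept uniquely mapped reads and called peaks with MACS2. Per the file columns, the deposited peak score equals 10 times the −log10 of the q-value, without decimals. A deposited fold (a ratio) divides the summit fragments by the local background, after 1 is added to each. The deposited −log10 p, taken from a Poisson model, compares these quantities, and the −log10 q column was not used. The deposited motif score and strand came from the authors' motif scan. Flags for Stag1, Stag2 and Top2b came from public data, and those columns, which have no header, were named in the order that the study lists them.

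Fragments and background at each summit were recovered from the fold and −log10 p, and were whole numbers within 0.05 at 99.996% of CTCF and 99.997% of Rad21 peaks. The lists do not give the depth of each library. Genes were from GENCODE vM1 on NCBIM37, which held all 22 chromosome names of the lists, with 0 peaks past a chromosome end. All sequences were read from that assembly. Peaks sharing at least 1 bp were paired, with the strongest partner used. For the ratio of Rad21 to CTCF each Rad21 peak was counted at 1 CTCF site, a choice made after seeing the data. Words of 50 bases were matched exactly on both strands. Motif scores used the matrix in the study's code. Local alignments of 401 bases around summits were kept from 100 columns and 75% identity. The word count and the recovery step were tested on simulated data. All members are named, along with fixed lists of related serpins and loci, every class-list site, CNC peaks at member starts or spans, and the strongest peaks. Other genes are named where they hold or adjoin a peak, and Gm8893, chosen after its values were seen, because it holds a motif match. Members, lists and alternatives were chosen with earlier results of these data known. Alternatives were other extensions, overlaps, thresholds, promoter distances and measures of strength. Tools were Biopython 1.88, Matplotlib 3.10.9, samtools 1.23.1 with pysam 0.24.0, and Python 3.11.15 with Numba 0.67.0, pandas 2.3.3, SciPy 1.17.1 and NumPy 2.4.6.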

Additional observations from a re-analysis of the deposited data

How the results depend on the processing

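With extensions of 100 kb the windows held 47 CTCF peaks instead of 30, and with a peak score of at least 100 they held 18 CTCF and 21 Rad21 peaks, the latter instead of 39. The counts of CTCF and Rad21 peaks stayed within 1.5-fold with extensions of 25 kb or with summits in place of any overlap, as did those of anchors (7 and 13 with extensions of 25 and 100 kb, instead of 10). The share of CTCF peaks with Rad21 ran from 60.0% to 83.3% over its alternatives (the latter at a score of at least 100, where all CTCF peaks had 64.4%) and the CNC share from 33.3% to 56.7%, all within the intervals given for the main values. When the counted peaks were held to a score of at least 100 and partners could have any score, an alternative added after seeing the data, these shares were 94.4% and 14.3%, outside those intervals. Members with a peak near a start numbered 3 within 500 bp, without Serpina3m, and 5 within 2 kb, with Serpina3k. The median CTCF score in the windows was 1.08 times that of all CTCF peaks, but 1.17 times by fold and 0.93 times by fragments, so its direction depends on the measure. For Rad21 the ratio was 0.68 by score, 0.80 by fold and 0.89 by fragments. With a shared Rad21 peak counted at each of its CTCF sites, an alternative added after seeing the data, the median ratio of Rad21 to CTCF fragments was 0.61 over 17 sites instead of 0.56 over 16. No paired analysis was possible because the lists pool the libraries, and for that reason no replicate could be left out. The lists do not give the depth of each library, and reads from repeated words were not placed by the authors.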
